A study of Sus scrofa with 12 samples.

Results

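Blood mononuclear cells that had received Salmonella together with a miR-124 sponge were compared with untreated cells, 4 libraries against 4, out of the 12 libraries of the series. The libraries were taken by their labels, and all 7480 gene symbols of the deposited table were tested. Per the labels, the cells were peripheral blood mononuclear cells (PBMC) of crossbred piglets (Duroc x Landrace x Yorkshire), 4 weeks old, and RNA was taken 12 h after treatment. The control group was not treated. The second group is labelled as treated with a miR-124 sponge and Salmonella, and the series names the bacterium as Salmonella Typhi. Its titles and column names read miR-124 with Salmonella and leave out the word sponge, so whether miR-124 itself or a sponge against it was given cannot be told apart from the titles alone. The other 4 libraries had Salmonella alone and are set beside the results below. No group had the sponge without Salmonella, so the comparison with control by itself cannot separate the sponge from the bacterium. The comparison with Salmonella alone bears on the sponge only in the presence of the bacterium. There too the sponge coincides with the tied values described below. The labels do not say which animals gave which library or whether animals were pooled. They give 20 piglets in all, 10 male and 10 female. The p-values thus measure only the spread between these libraries, which may be technical.

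Salmonella is sensed by blood phagocytes mainly through the lipopolysaccharide receptor TLR4 and other pattern receptors, which switch on NF-kB and interferon regulatory factors. Cytokines, chemokines and interferon-stimulated genes follow, and secreted interferon carries the response to neighbouring lymphocytes. miR-124 is a microRNA abundant in neurons that is also found in monocytes and macrophages, where it is known for dampening inflammatory activation. A sponge is an RNA or oligonucleotide with binding sites that takes up a microRNA, so that messages carrying its seed match are released.

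The values are log2 levels of 1 symbol per row, with a library median between 5.11 and 5.31, and the depth behind them is unknown. Symbols of 184 olfactory receptors, taste receptors, beta-defensins, vomeronasal receptors and keratin-associated proteins were taken as silent in blood. This silent set averaged 4.61 in the 8 libraries, with a 95th percentile of 5.22. Levels at or under 5.22 are called near background below, and the size of a difference that starts or ends there is uncertain. This also holds where it is not repeated, among others for the control levels of OAS2, SOCS1, SOCS3, CASP6, PMAIP1, ITGB3, HSPA4, E2F1 and CAV1. A value shared exactly by several genes was rare in the control and Salmonella libraries (at most 0.0802% of the values of a library). In the 4 sponge plus Salmonella libraries, however, such ties covered 65.1% to 71.4% of the values. The difference in ties coincides with the treatment, so the 2 cannot be told apart, and its source was not tested. Between 22.9% and 24.2% of the values of a control library also stood, to every deposited digit, somewhere in another given control library. In a given Salmonella library 22.7% to 24.2% of them did, and in a given sponge plus Salmonella library 8.20% to 10.6%. Of the values of a sponge plus Salmonella library, 8.01% to 9.28% stood in another given library of that group. Each sponge plus Salmonella library held only 3260 to 3894 distinct values, against at least 7477 in each of the others. No source used here accounts for the shared and tied values, so it is uncertain how the levels derive from the reads of these libraries. Pairs of control libraries correlated across genes at 0.965 to 0.987 and pairs of sponge plus Salmonella libraries at 0.964 to 0.981, while pairs drawn from both groups gave 0.857 to 0.946, all as a description. Defining genes of mononuclear cells were present in control libraries, among them the T cell genes CD2 (11.44 ± 0.33, SD, n = 4) and CD8A (11.62 ± 0.51), the B cell receptor gene CD79A (11.95 ± 0.42) and the monocyte gene VCAN (10.62 ± 0.45). The T cell receptor gene CD3D was near background (4.29 ± 0.20), while its partner CD3E was not (7.79 ± 0.10). CD8A, VCAN and CD3E were picked as well-known markers. RNA was extracted with a PAXgene kit, per the labels, and the globin gene HBA2 stood at 13.81 ± 0.08, a mark of red cell RNA. In bulk samples such as these, fewer cells of a type and less RNA per cell cannot be told apart.

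Steep rises with the sponge and Salmonella were more numerous than steep falls, although more genes were lower than higher. By limma, 3057 of 7480 genes (40.9%) had an adjusted p below 0.05, 1336 of them (17.9% of all) higher and 1721 (23.0%) lower than in control libraries. The difference reached 1 log2 unit for 675 of the higher and 425 of the lower genes. It reached 2 log2 units for 251 and 19, and 3 log2 units for 65 and 4. Of the 251 genes, 145 were near background in control libraries, where the size of a rise is uncertain. Among the genes called higher the median rise was 1.02 from a median control level of 4.63, and 830 of them were near background in control libraries. The genes called lower fell by a median of 0.72 from a median level of 7.05, and 718 of them were near background in sponge plus Salmonella libraries. The share called lower grew with the level. Of the 848 genes with a mean of 9 or more, 324 (38.2%) were lower and 129 (15.2%) higher, while of the 3346 with a mean under 5, 509 (15.2%) were lower and 509 higher.

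The values of the 2 groups did not overlap for 2973 genes (39.7%). Without adjustment 3743 genes had a p below 0.05. When each column was centred on its median, which moved the median difference over all genes from -0.07 to -0.20, 1062 genes were higher and 2569 lower, so the split between directions depends on the scaling. Of the 3819 genes tied in all 4 sponge plus Salmonella columns, 31.6% were called, against 55.2% of the 1279 tied in none. The tied genes had the lower levels, with a median of 4.66 against 9.29.

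**Figure D1:**
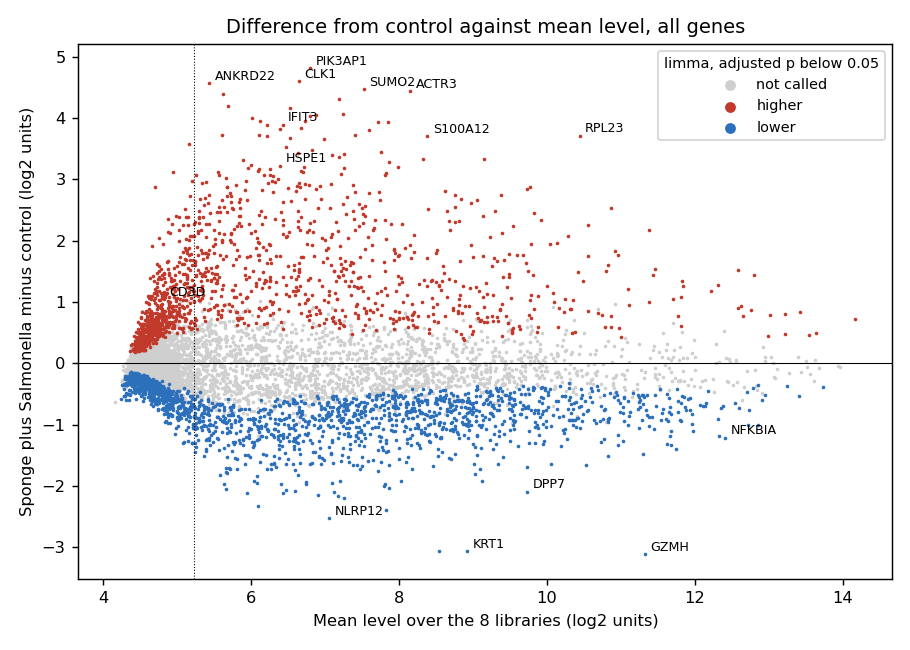
Difference between sponge plus Salmonella and control (y axis, log2 units) against the mean level over the 8 libraries (x axis, log2 units), 1 point for each gene. Red points are the 1336 genes called higher and blue points the 1721 called lower, grey points were not called, and the dotted line marks the 95th percentile of the silent set, 5.22. Rises reach further from 0 than falls.

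The largest rise among genes with a mean of at least 5 and separate groups was that of PIK3AP1, an adaptor that links receptors of B cells and Toll-like receptors to phosphoinositide 3-kinase (chromosome 14, 108038396 to 108303942 in Sscrofa11.1, RefSeq). It stood at 3.82, 4.30, 5.30 and 4.14 in control replicates 1 to 4 and at 9.22, 9.68, 9.30 and 8.60 in sponge plus Salmonella replicates 1 to 4, a difference of 4.81 ± 0.47 SE, adjusted p = 4.0e-05. The highest control library lay well under the lowest treated one. CLK1, a kinase that phosphorylates splicing factors (chromosome 15, 104553512 to 104562348), stood at 3.50, 4.25, 5.55 and 4.10 in control and 8.53, 9.25, 9.48 and 8.52 in sponge plus Salmonella libraries (4.60 ± 0.53 SE, adjusted p = 6.3e-05). In both genes control replicate 1 was the lowest and replicate 3 the highest of the controls, and the groups stayed far apart. SUMO2, a small ubiquitin-like modifier (chromosome 12, 6116694 to 6130089), read 4.11, 5.41, 7.25 and 4.36 in control and 9.47, 10.20, 9.80 and 9.53 in treated libraries (4.47 ± 0.68 SE, adjusted p = 2.6e-04). ACTR3, a subunit of the Arp2/3 complex that nucleates branched actin (chromosome 15, 20104808 to 20171721), read 4.84, 6.56, 7.28 and 5.04 and 10.36, 10.88, 10.14 and 10.08 (4.44 ± 0.56 SE, adjusted p = 8.3e-05). The 4 treated values of each of these genes lay closer together than the controls of SUMO2 and ACTR3.

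The other large rises named here had control means between 3.15 and 5.21, at or near background. They were ANKRD22 (given with the interferon genes below), the G protein subunits GNG10 (4.40 ± 0.48 SE) and GNA13 (4.17 ± 0.57), the lipid droplet enzyme HSD17B11 (4.31 ± 0.47) and the B cell adaptor DAPP1 (4.20 ± 0.48). RAD21 of the cohesin ring (4.06 ± 0.64), the junctional adhesion molecule F11R (4.05 ± 0.50) and the reticulons RTN4 (4.03 ± 0.50) and RTN3 (3.95 ± 0.46), which shape the endoplasmic reticulum, rose as well. So did the mitophagy receptor BNIP3L (control values of 3.28, 4.21, 4.90 and 3.62, treated mean of 8.01 ± 0.31 SD) and SLBP (3.95 ± 0.48), which binds the stem-loop of histone messages. Adjusted p ran from 6.2e-05 to 3.2e-04 for these 10. No control value reached a treated one, which the choice of genes required. With Salmonella alone all 10 had a mean between those of the other groups. CLK1 was at 6.48 ± 1.24 with Salmonella alone, and its further difference with the sponge was 2.46 ± 0.53 SE, adjusted p = 0.00457. The genes RTN3 (2.14 ± 0.46 SE, adjusted p = 0.00486), SLBP (1.84 ± 0.48 SE, adjusted p = 0.0125), F11R (1.77 ± 0.50 SE, adjusted p = 0.0200), HSD17B11 (1.95 ± 0.47 SE, adjusted p = 0.00836) and RAD21 (2.40 ± 0.64 SE, adjusted p = 0.0149) were also higher than with Salmonella alone, a comparison in which 25.0% of all genes were called. F11R lost that call with sponge plus Salmonella replicate 3 or Salmonella replicate 2 or 4 left out (adjusted p 0.0605 to 0.0652). PIK3AP1 (at 8.20 ± 1.18 with Salmonella alone, adjusted p = 0.132) and DAPP1 (0.53 ± 0.48 SE, adjusted p = 0.435) were not called there. Both comparisons use the same 4 sponge plus Salmonella libraries.

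These rises shared an order of libraries inside each group, which was noticed after the values were seen. Without ANKRD22, the mean of the other 14 was 3.82, 4.75, 5.62 and 4.15 in control replicates 1 to 4, 8.61, 9.28, 8.99 and 8.44 in sponge plus Salmonella replicates 1 to 4 and 8.79, 6.62, 7.10 and 5.91 in Salmonella replicates 1 to 4. Control replicate 1 was the lowest control for all 14 and replicate 3 the highest for 13. Salmonella replicate 1 was the highest Salmonella library for all 14, and its mean lay among the sponge plus Salmonella libraries. Over the 251 genes that rose by at least 2 log2 units, control replicate 3 was the highest control for 207 (82.5%), control replicate 1 the lowest for 171 (68.1%) and Salmonella replicate 1 the highest Salmonella library for 217 (86.5%). Over all genes these shares were 25.5%, 23.9% and 24.7%. The part of this shared order in the rises was not tested. Against Salmonella alone 9 of the 14 were called higher, with a median difference of 1.80, and without Salmonella replicate 1 all 14 were, with a median of 2.34. Only 2 were called in the test against 0.5 log2 units. Without Salmonella replicate 2, 3 or 4 the count was 5, 6 and 5. Without sponge plus Salmonella replicates 1 to 4 in turn it was 8, 6, 5 and 7. Left out in turn, none of the 12 libraries ended the call of any of the 15 rises.

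**Figure D2:**
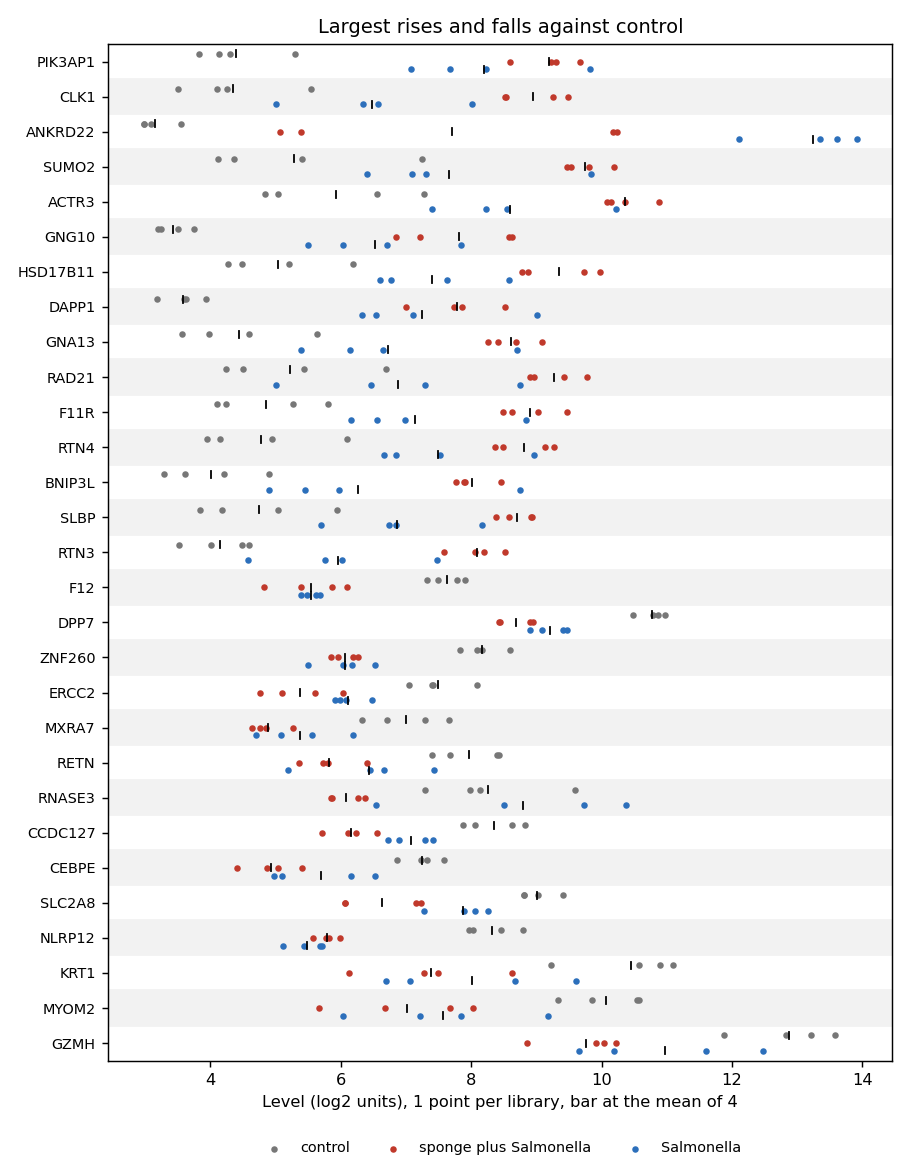
Level of the 15 largest rises and 14 largest falls in each library (x axis, log2 units), grey for control, red for sponge plus Salmonella and blue for Salmonella, with a bar at each mean of 4. The 29 genes were chosen for control and sponge plus Salmonella points that do not overlap. The Salmonella mean of each rise but ANKRD22 lies between the other means.

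Among the reported falls with a mean of at least 5 and separate groups, which leave out 1 Y-linked gene, the largest was in GZMH, a granzyme of killer lymphocytes (chromosome 7, 74723800 to 74727396), from 13.21, 11.89, 13.58 and 12.84 in control to 10.23, 9.92, 8.86 and 10.04 in sponge plus Salmonella libraries (-3.12 ± 0.52 SE, adjusted p = 4.5e-04). Its highest treated library lay under every control, which the choice of genes required. MYOM2, known as a protein of the muscle sarcomere (chromosome 15, 33529559 to 33606928), went from 9.34, 10.54, 9.85 and 10.58 to 6.68, 8.03, 5.66 and 7.67 (-3.07 ± 0.58 SE, adjusted p = 0.00103). KRT1, a keratin (chromosome 5, 18012922 to 18018582), went from 10.57, 11.10, 9.22 and 10.90 to 7.28, 8.63, 6.13 and 7.50 (-3.06 ± 0.62 SE, adjusted p = 0.00150). In both, sponge plus Salmonella replicate 3 was the lowest and replicate 2 the highest of the treated libraries. NLRP12, a receptor known for restraining NF-kB in myeloid cells (chromosome 6, 56402617 to 56425038), fell from 7.97, 8.46, 8.03 and 8.80 to 5.77, 5.57, 5.81 and 5.99 (-2.53 ± 0.23 SE, adjusted p = 2.1e-05), and DPP7, a lysosomal dipeptidase, from 10.97, 10.86, 10.49 and 10.79 to 8.91, 8.43, 8.45 and 8.94 (-2.10 ± 0.18 SE, adjusted p = 2.0e-05). Both had a wide gap between the groups. The myeloid genes CEBPE (-2.32 ± 0.35 SE), a granulocyte transcription factor, RETN (-2.15 ± 0.40), the hormone resistin, and RNASE3 (-2.17 ± 0.64), the eosinophil cationic protein, fell too. So did the sugar transporter SLC2A8 (-2.39 ± 0.29), the repair helicase ERCC2 (-2.11 ± 0.30), the zinc finger gene ZNF260 (-2.10 ± 0.24), clotting factor F12 (-2.08 ± 0.27), MXRA7 (-2.12 ± 0.34) and CCDC127 (-2.19 ± 0.26). The call of RNASE3 ended with control replicate 2 left out (adjusted p = 0.0505), and in Salmonella libraries it stood at 8.79 ± 1.69, above the treated level (-2.70 ± 0.64 SE, adjusted p = 0.00774). The falls averaged 8.67 to 8.90 in control, 7.02 to 7.38 in Salmonella and 6.07 to 6.71 in sponge plus Salmonella libraries. Like RNASE3, SLC2A8 (-1.24), CCDC127 (-0.92) and DPP7 (-0.53) were also lower than with Salmonella alone. The other falls were not called there. CCDC127 and DPP7 lost that call when some single libraries were left out, and DPP7 also with the replicate number as a block and with quantile normalization. RNASE3 and GZMH belong to families of near copies, so their levels are uncertain.

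**Figure D3:**
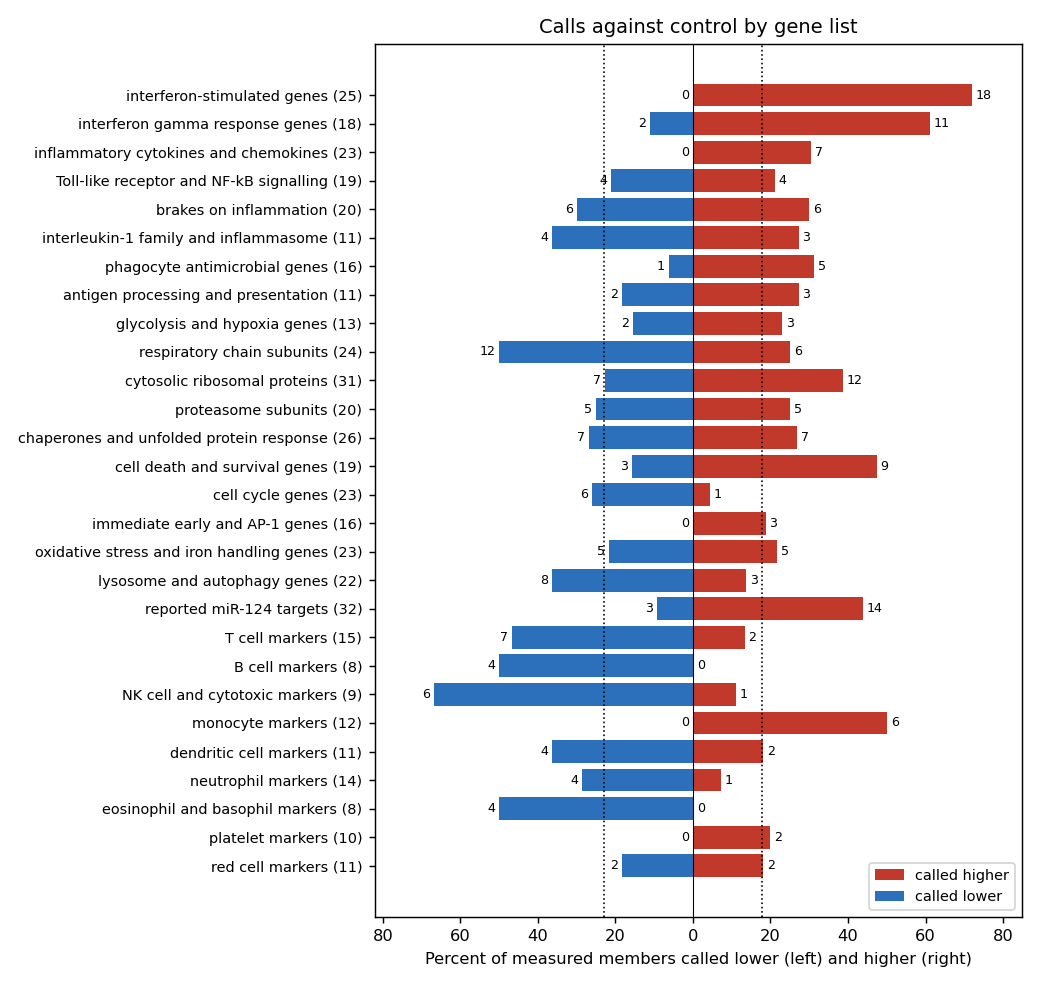
Share of the measured members of each gene list with at least 4 measured members called higher (red, right) and lower (blue, left) against control, in percent, with the counts at the bar ends and the number of measured members in brackets. Dotted lines mark the shares over all genes, 17.9% higher and 23.0% lower. Interferon-stimulated genes stand furthest to the right and NK cell and cytotoxic markers furthest to the left of the lists drawn.

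Within each list of at least 4 measured genes, the 3 members with the smallest p are named, called or not, apart from members not reported here. Any other gene is said to lie outside this naming rule, having been picked with its values known. Counts of a list are to be read beside the 17.9% of all genes called higher and the 23.0% called lower. These shares change with the mean level, taken as under 5, 5 to 7, 7 to 9 and 9 and over. Called lower were 15.2%, 22.2%, 34.7% and 38.2% of genes, and called higher 15.2%, 22.7%, 19.0% and 15.2%. Only the T cell, chaperone and respiratory chain lists are set beside these shares at about their mean level, and their members vary in level. The medians of 7 lists, between -0.10 and 0.12, changed sign under at least 1 alternative, namely those of Toll-like receptor signalling, brakes on inflammation, ribosomal proteins, immediate early genes, cytokines, phagocyte genes and the proteasome.

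Interferon-stimulated genes, which carry the antiviral programme, were raised with the sponge and Salmonella, but to a level that differed between the treated libraries. Of 25 measured members 18 were higher, 0 lower and 7 not called, with a median difference of 1.24, against -0.07 over all genes. Their mean was 7.05, 6.98, 6.85 and 7.50 in control replicates 1 to 4 and 9.22, 8.94, 7.90 and 7.95 in sponge plus Salmonella replicates 1 to 4. Treated replicates 1 and 2 stood above replicates 3 and 4, and all 4 above the highest control. In Salmonella libraries the mean was 10.16, 10.45, 10.45 and 10.86, above every sponge plus Salmonella library. PARP9, a partner of the ubiquitin ligase DTX3L, stood at 5.36, 5.51, 6.26 and 5.57 in control and 9.65, 9.44, 8.05 and 7.91 in treated libraries (3.08 ± 0.36 SE, adjusted p = 6.3e-05). OAS2, which makes the activator of the RNA-degrading enzyme RNase L, stood at 4.18, 4.05, 4.51 and 4.24 and 8.31, 7.13, 6.39 and 6.61 (2.87 ± 0.35 SE, adjusted p = 6.5e-05). IFIT3, of the IFIT complex that binds foreign RNA (chromosome 14, 101214730 to 101225169), stood at 4.10, 4.15, 3.69 and 5.99 and 9.46, 9.78, 7.20 and 7.02 (3.88 ± 0.61 SE, adjusted p = 3.0e-04). All 3 genes had separate groups, with replicates 1 and 2 the highest treated libraries in each.

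The same split marked ANKRD22, an ankyrin repeat gene (chromosome 14, 100747955 to 100772412). It read 2.98, 3.08, 2.98 and 3.55 in control, 10.17, 10.23, 5.07 and 5.38 in sponge plus Salmonella and 12.11, 13.61, 13.35 and 13.92 in Salmonella libraries. Treated replicates 1 and 2 were the high ones and replicates 3 and 4 the low ones, so its mean of 7.71 ± 2.88 (SD, n = 4) lies where no library did. The difference from control was 4.56 ± 0.96 SE, adjusted p = 0.00200, and that from Salmonella alone was -5.53 ± 0.96 SE, adjusted p = 0.00127. IFITM3, which blocks viral entry, read 8.05, 8.64, 8.02 and 8.64 in control and 12.35, 12.50, 8.91 and 11.06 in treated libraries (2.87 ± 0.55 SE, adjusted p = 0.00108), and in all 4 Salmonella libraries it stood at the highest value of the table, 15.01. It has near-identical copies, so its level is uncertain. CXCL10, a chemokine that draws activated T cells, read 5.87, 5.07, 3.85 and 5.48 in control and 11.24, 8.80, 5.45 and 6.21 in treated libraries (2.86 ± 0.95 SE, adjusted p = 0.0268). Its groups overlapped, since treated replicate 3 lay under control replicates 1 and 4. IFITM3 and CXCL10 were picked once their values were known. CXCL10 lost its call with control replicate 2 or 3 or sponge plus Salmonella replicate 1 or 2 left out (adjusted p 0.0505 to 0.0753) and with no variance trend (adjusted p = 0.0521).

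Left out in turn, no library turned the direction of the list, and the number of members called higher ran from 13 to 21. Without treated replicate 1 or 2, the count was 14 and 13. The 7 members that did not pass had differences from 0.31 (HERC6) to 0.61 (DDX60).

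**Figure D4:**
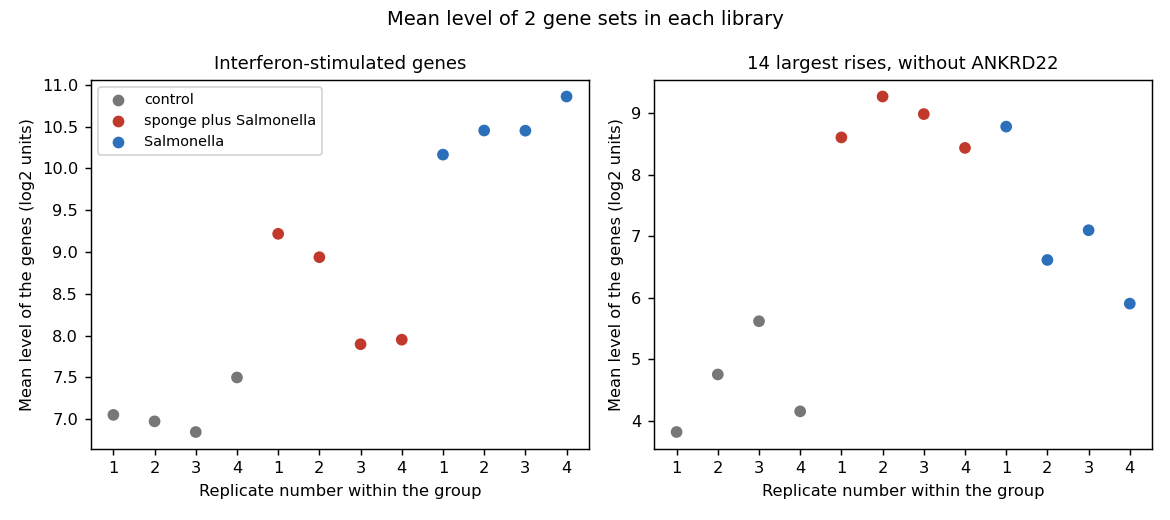
Mean level (y axis, log2 units) of the 25 measured interferon-stimulated genes (left) and of the 14 largest rises without ANKRD22 (right) in each library, by replicate number within the group (x axis), grey for control, red for sponge plus Salmonella and blue for Salmonella. On the left, sponge plus Salmonella replicates 1 and 2 (9.22 and 8.94) stand above replicates 3 and 4 (7.90 and 7.95). On the right, Salmonella replicate 1 (8.79) lies among the sponge plus Salmonella libraries.

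Genes known to answer interferon gamma moved in like manner. Of 18 measured, 11 were higher, 2 lower and 5 not called, with a median difference of 1.10. FGL2, a fibrinogen-like protein of activated macrophages, went from 11.15 ± 0.16 to 12.49 ± 0.50 (1.35 ± 0.20 SE, adjusted p = 2.2e-04). SOCS1, the feedback inhibitor of JAK kinases, went from 4.30 ± 0.10 to 6.77 ± 0.86 (2.46 ± 0.42 SE, adjusted p = 4.9e-04), and VAMP5 from 7.50 ± 0.50 to 10.17 ± 1.33 (2.68 ± 0.49 SE, adjusted p = 7.7e-04). With Salmonella alone SOCS1 reached 9.17 ± 0.85, higher than with the sponge (-2.40 ± 0.42 SE, adjusted p = 0.00127). The 2 members called lower were IFNGR1 (-0.92 ± 0.22 SE, adjusted p = 0.00434), a chain of the interferon gamma receptor, and IRF8 (-0.60 ± 0.18 SE, adjusted p = 0.0176), a monocyte and dendritic cell transcription factor, neither of them under the naming rule. The call of IRF8 ended with control replicate 1 or sponge plus Salmonella replicate 2 or 3 left out (adjusted p 0.0512 to 0.0529). The list mean in sponge plus Salmonella replicates 1 to 4 was 9.11, 8.59, 7.45 and 7.65, the same order of libraries as for the interferon-stimulated genes, against 7.19, 6.97, 6.84 and 7.14 in control replicates 1 to 4.

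Most cytokine and chemokine genes were not called. Of 23 measured, 7 were higher, 0 lower and 16 not called, with a median difference of 0.00, and 16 were near background in both groups. The death ligand gene TNFSF10 went from 8.81 ± 0.39 to 10.75 ± 0.84 (1.94 ± 0.34 SE, adjusted p = 5.9e-04). IL1B, the fever cytokine, read 7.87, 8.07, 7.28 and 8.74 in control and 9.48, 9.53, 9.27 and 9.16 in treated libraries (1.37 ± 0.28 SE, adjusted p = 0.00164), and IL18, which drives interferon gamma, went from 12.13 ± 0.37 to 13.04 ± 0.12 (0.90 ± 0.21 SE, adjusted p = 0.00425). IL18 was also higher than with Salmonella alone, where it stood at 12.30 ± 0.44 (0.73 ± 0.21 SE, adjusted p = 0.0231), a call lost with sponge plus Salmonella replicate 3 or 4 or Salmonella replicate 3 or 4 left out (adjusted p 0.0551 to 0.0744). TNF (-0.09 ± 0.33 SE, adjusted p = 0.841) and IL6 (-0.34 ± 0.20 SE, adjusted p = 0.194) were not called, and both were picked as central cytokines. Without control replicate 2 the members called higher went from 7 to 4. With median centring 5 were higher and 2 lower. With a mean of at least 6 required, 4 were higher, 0 lower and the median was 1.14.

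Of 11 genes of the interleukin-1 family and the inflammasome, 3 were higher, 4 lower and 4 not called, with a median difference of -0.44. Higher were IL1B, IL18 and TXNIP (0.49 ± 0.12 SE, adjusted p = 0.00431), a thioredoxin-binding protein that can engage NLRP3. Lower were NLRP12 and IL33 (-0.44 ± 0.10 SE, adjusted p = 0.00248), the latter near background in both groups, and the inflammasome sensor and adaptor NLRP3 (-0.44 ± 0.16 SE, adjusted p = 0.0346) and PYCARD (-0.69 ± 0.26 SE, adjusted p = 0.0430). TXNIP, NLRP3 and PYCARD are outside the naming rule. The call of NLRP3 ended with control replicate 1, 2, 3 or 4 or sponge plus Salmonella replicate 2 or 4 left out (adjusted p 0.0596 to 0.106) and with the 8 libraries alone (adjusted p = 0.0591), with the replicate number as a block (adjusted p = 0.0559) and with quantile normalization (adjusted p = 0.0638). For PYCARD it was lost with control replicate 1, 2 or 4 or sponge plus Salmonella replicate 2, 3 or 4 or Salmonella replicate 3 left out (adjusted p 0.0551 to 0.136) and with the replicate number as a block (adjusted p = 0.0738) and with no variance trend (adjusted p = 0.0523).

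Of 19 measured receptors and signalling genes of the Toll-like receptor and NF-kB pathways, 4 were higher, 4 lower and 11 not called, with a median difference of -0.10. The shares, 21.1% in each direction, were near those of all genes. With a mean of at least 6 required, 4 were higher and 2 lower, with a median of 0.28. NFKBIA, the inhibitor that holds NF-kB in the cytoplasm, read 13.15, 12.99, 12.86 and 13.07 in control and 11.86, 11.74, 11.84 and 11.76 in treated libraries (-1.21 ± 0.14 SE, adjusted p = 6.3e-05), with tight groups. TNFAIP6, a hyaluronan-binding protein induced in inflammation, went from 7.13 ± 0.78 to 9.02 ± 1.16 (1.89 ± 0.47 SE, adjusted p = 0.00558). TLR9, a sensor of bacterial DNA, went from 5.46 ± 0.17 to 4.74 ± 0.17 (-0.72 ± 0.19 SE, adjusted p = 0.00776), near background. The remaining calls, outside the naming rule, are named because they are few. Higher were the endotoxin receptor TLR4 (0.79 ± 0.23 SE, adjusted p = 0.0134), the RNA sensor TLR8 (0.82 ± 0.25 SE, adjusted p = 0.0185) and the kinase IRAK2 (0.81 ± 0.25 SE, adjusted p = 0.0169). TLR4 was lower than with Salmonella alone, where it stood at 9.31 ± 0.36 (-1.48 ± 0.23 SE, adjusted p = 6.1e-04). Lower were the I-kappa-B kinase CHUK (-0.51 ± 0.19 SE, adjusted p = 0.0467) and LBP (-0.19 ± 0.07 SE, adjusted p = 0.0364), the lipopolysaccharide carrier, which was near background in both groups. The call of TLR8 ended with control replicate 2 or sponge plus Salmonella replicate 3 left out (adjusted p 0.0503 to 0.0519), as did that of IRAK2 with sponge plus Salmonella replicate 4 left out (adjusted p = 0.0555). CHUK lost its call with control replicate 1, 3 or 4 or sponge plus Salmonella replicate 2, 3 or 4 or Salmonella replicate 2 or 3 left out (adjusted p 0.0578 to 0.127) and with the replicate number as a block (adjusted p = 0.0792) and with quantile normalization (adjusted p = 0.0542). LBP lost it with control replicate 1, 3 or 4 or sponge plus Salmonella replicate 2 or 4 left out (adjusted p 0.0556 to 0.0940) and with the replicate number as a block (adjusted p = 0.0689) and with no variance trend (adjusted p = 0.0876).

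Among 20 genes that restrain inflammation, 6 were higher, 6 lower and 8 not called, with a median difference of 0.09. With a mean of at least 6 required, 4 were higher, 7 lower and the median was -0.67. Besides NLRP12 and NFKBIA the smallest p was that of DUSP5, a phosphatase that acts on ERK, which went from 6.27 ± 0.11 to 7.88 ± 0.32 (1.61 ± 0.20 SE, adjusted p = 8.1e-05). Other members called higher were SOCS1, DUSP6, CTLA4, INPP5D and SOCS3, and others called lower were TSC22D3, HAVCR2, ZC3H12A and ANXA1. These are named for completeness, outside the rule. SOCS3, a feedback inhibitor of IL-6 receptor signalling, stood at 5.46 ± 0.23 against 4.60 ± 0.42 in control (0.86 ± 0.28 SE, adjusted p = 0.0256) and lost its call with control replicate 1 or 3 or sponge plus Salmonella replicate 1 or 2 left out (adjusted p 0.0514 to 0.0761) and with sample weights (adjusted p = 0.0602). STAT3 (0.59 ± 0.25 SE, adjusted p = 0.0696) and CD274 (0.85 ± 0.44 SE, adjusted p = 0.130), which encodes PD-L1, were not called and were picked as well-known members.

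Phagocyte genes rose in part. Of 16 antimicrobial genes, 5 were higher, 1 lower and 10 not called, with a median difference of 0.12. S100A12, a calcium-binding alarmin of myeloid cells, read 4.91, 7.25, 7.83 and 6.13 in control and 9.83, 10.90, 10.34 and 9.84 in treated libraries (3.70 ± 0.52 SE, adjusted p = 1.5e-04), and its controls spread over more than the treated group. NCF1 (1.51 ± 0.25 SE, adjusted p = 4.5e-04) and CYBB (1.41 ± 0.28 SE, adjusted p = 0.00139), parts of the NADPH oxidase that makes superoxide, rose, as did the beta-glucan receptor CLEC7A (2.32 ± 0.41 SE, adjusted p = 6.2e-04) and lysozyme, LYZ (1.05 ± 0.30 SE, adjusted p = 0.0125). Lactoferrin, LTF, was the member called lower (-1.51 ± 0.52 SE, adjusted p = 0.0297), and the call was lost with control replicate 2, 3 or 4 or sponge plus Salmonella replicate 1 or 3 left out (adjusted p 0.0525 to 0.0774). CYBB, LYZ and LTF are outside the naming rule. Of 12 monocyte markers, 6 were higher, 0 lower and 6 not called, with a median difference of 0.68, led by CLEC7A, the chemokine receptor CCR2 (1.89 ± 0.35 SE, adjusted p = 8.4e-04) and the scavenger receptor CD163 (1.36 ± 0.30 SE, adjusted p = 0.00262). Their mean was 7.98, 8.45, 7.97 and 8.43 in control and 9.10, 9.18, 8.91 and 8.62 in treated replicates 1 to 4, so the groups did not overlap.

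More lymphocyte markers fell than rose, as was so for genes of high level in general. Of 15 T cell markers, 2 were higher, 7 lower and 6 not called, with a median difference of -0.51. That is 13.3% higher and 46.7% lower, beside 15.2% and 38.2% of genes with a mean of 9 and over. The list mean in control libraries was 9.05. CD8B (-1.65 ± 0.33 SE, adjusted p = 0.00150), CD2 (-0.81 ± 0.18 SE, adjusted p = 0.00281) and CD8A (-1.34 ± 0.30 SE, adjusted p = 0.00298), surface proteins of T cells, fell, and CD2 read 11.48, 11.10, 11.87 and 11.30 in control and 10.43, 10.43, 10.86 and 10.80 in treated libraries. CD3D, near background in control libraries, was called higher (1.04 ± 0.15 SE, adjusted p = 1.7e-04), with 4.28, 4.13, 4.59 and 4.18 in control and 5.60, 5.11, 5.05 and 5.60 in treated libraries. Its partner CD3E read 7.87, 7.87, 7.76 and 7.65 and 7.38, 7.72, 8.30 and 7.90, groups that overlapped (0.04 ± 0.24 SE, adjusted p = 0.911). The other member called higher was TCF7 (0.62 ± 0.23 SE, adjusted p = 0.0392), a transcription factor of naive T cells, which lost its call with control replicate 1, 3 or 4 or sponge plus Salmonella replicate 3 or 4 or Salmonella replicate 3 left out (adjusted p 0.0531 to 0.114) and with the 8 libraries alone (adjusted p = 0.0743), with no variance trend (adjusted p = 0.0554), with median centring (adjusted p = 0.0745) and with quantile normalization (adjusted p = 0.0678). CD8A, CD3E and TCF7 are outside the naming rule. CD2 was higher with the sponge than with Salmonella alone (0.82 ± 0.18 SE, adjusted p = 0.00502).

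Of 8 B cell markers, 0 were higher, 4 lower and 4 not called, with a median difference of -0.61. The lower ones were CD79A (-0.75 ± 0.20 SE, adjusted p = 0.00766), a chain of the B cell receptor, the coactivator POU2AF1 (-1.03 ± 0.28 SE, adjusted p = 0.00986), the follicle-homing receptor CXCR5 (-0.71 ± 0.24 SE, adjusted p = 0.0287) and the survival receptor TNFRSF13C (-0.67 ± 0.25 SE, adjusted p = 0.0435), the last outside the naming rule. CD79A read 12.55, 11.69, 11.88 and 11.66 in control, 11.36, 11.03, 11.11 and 11.27 in sponge plus Salmonella and 9.55, 8.92, 9.09 and 9.12 in Salmonella libraries, 3 separate levels. CXCR5 lost its call with control replicate 1 or sponge plus Salmonella replicate 1 or 2 left out (adjusted p 0.0726 to 0.0995). TNFRSF13C lost it with control replicate 1, 2, 3 or 4 or sponge plus Salmonella replicate 1 or 2 or Salmonella replicate 3 left out (adjusted p 0.0572 to 0.141) and with the 8 libraries alone (adjusted p = 0.0564), with the replicate number as a block (adjusted p = 0.0523) and with sample weights (adjusted p = 0.0786). All 3 measured plasma cell genes were called, XBP1 (-0.93 ± 0.17 SE, adjusted p = 8.2e-04) and TNFRSF17 (-1.61 ± 0.45 SE, adjusted p = 0.0111) lower and SDC1 (0.46 ± 0.15 SE, adjusted p = 0.0247) higher, a list too short for the naming rule. SDC1 was near background in both groups and lost its call with control replicate 3 or 4 or sponge plus Salmonella replicate 1 left out (adjusted p 0.0513 to 0.0707) and with median centring (adjusted p = 0.0703).

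Killer lymphocyte genes gave the list with the lowest median in the fit of all 12 libraries. That rank did not hold under every alternative. The median of the eosinophil and basophil markers reached -1.51, that of the killer lymphocyte genes at the lowest -1.30. Of 9 NK cell and cytotoxic markers, 1 was higher, 6 lower and 2 not called, with a median difference of -1.10. After GZMH came the granzymes GZMA (-1.34 ± 0.24 SE, adjusted p = 7.5e-04) and GZMK (-1.48 ± 0.28 SE, adjusted p = 9.1e-04). The mean of the list was 9.54, 9.01, 9.39 and 9.21 in control and 8.38, 8.39, 8.07 and 8.51 in treated replicates 1 to 4, with no overlap. The member called higher was TBX21 (0.90 ± 0.27 SE, adjusted p = 0.0168), the transcription factor T-bet, picked because it was the exception. It lost its call with control replicate 1 or sponge plus Salmonella replicate 2 left out (adjusted p 0.0553 to 0.0569).

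Markers of other blood cells moved as well, and their part in the other results was not tested. Of 11 dendritic cell markers, 2 were higher, 4 lower and 5 not called, with a median difference of -0.35. FCER1A, a chain of the IgE receptor, fell (-1.51 ± 0.22 SE, adjusted p = 2.2e-04), and the transcription factors SPIB (1.51 ± 0.28 SE, adjusted p = 8.9e-04) and IRF4 (1.38 ± 0.36 SE, adjusted p = 0.00752) rose. TLR9, TCF4 (-0.72 ± 0.25 SE, adjusted p = 0.0313) and CCR7 (-0.84 ± 0.30 SE, adjusted p = 0.0377) were lower, TCF4 and CCR7 being outside the naming rule. TCF4 lost its call with control replicate 1, 2 or 4 or sponge plus Salmonella replicate 2 or 4 left out (adjusted p 0.0646 to 0.0905) and with the replicate number as a block (adjusted p = 0.0569). CCR7 lost it with control replicate 1, 2 or 3 or sponge plus Salmonella replicate 1, 2 or 3 left out (adjusted p 0.0649 to 0.124) and with no variance trend (adjusted p = 0.0600), with sample weights (adjusted p = 0.0803) and with quantile normalization (adjusted p = 0.0938). Of 8 eosinophil and basophil markers, 0 were higher, 4 lower and 4 not called, with a median difference of -0.91, namely FCER1A, the receptor chain IL5RA (-1.65 ± 0.29 SE, adjusted p = 6.0e-04), the lipoxygenase ALOX15 (-1.27 ± 0.37 SE, adjusted p = 0.0141) and RNASE3. Of 14 neutrophil markers, 1 was higher, 4 lower and 9 not called, with a median difference of -0.55. S100A12 was the one called higher, CEBPE, RETN, LTF and the protease PRTN3 (-0.74 ± 0.23 SE, adjusted p = 0.0174) were the lower ones, LTF and PRTN3 outside the naming rule. PRTN3 lost its call with sponge plus Salmonella replicate 1 left out (adjusted p = 0.0509). Without that library 2 neutrophil members were lower, with a median of -0.22. The neutrophil list mean ran from 7.04 to 7.61 in control and from 6.56 to 7.36 in treated libraries, so the groups overlapped.

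Platelet and red cell genes were present in both groups. Of 10 platelet markers, 2 were higher, 0 lower and 8 not called, with a median difference of 0.39. ITGB3, the beta chain of the fibrinogen receptor, went from 4.63 ± 0.25 to 7.04 ± 0.44 (2.41 ± 0.28 SE, adjusted p = 6.3e-05) and the tubulin TUBB1 from 9.81 ± 0.42 to 11.16 ± 0.04 (1.35 ± 0.19 SE, adjusted p = 1.4e-04). F13A1, a clotting factor subunit, was not called (0.56 ± 0.22 SE, adjusted p = 0.0508), and PF4, which defines platelets and was picked for that, was near background in both groups (4.64 ± 0.09 and 4.48 ± 0.14). Without sponge plus Salmonella replicate 1, or without Salmonella replicate 2 or 3, the members called higher went from 2 to 4, which also held for the fit of the 8 libraries alone and with sample weights, and 5 were higher with quantile normalization. Of 11 red cell markers, 2 were higher, 2 lower and 7 not called, with a median difference of -0.51. Carbonic anhydrase CA2 (1.18 ± 0.24 SE, adjusted p = 0.00160) and the globin HBA2 (0.72 ± 0.22 SE, adjusted p = 0.0164) were higher and, outside the naming rule, the erythroid factor GATA1 (-0.69 ± 0.25 SE, adjusted p = 0.0396) was lower. HBA2 stood at the highest value of the table, 15.01, in treated replicates 2 and 4. It lost its call with sponge plus Salmonella replicate 2 or 4 left out (adjusted p 0.0574 to 0.0587). GATA1 lost its call with control replicate 2 or 4 or sponge plus Salmonella replicate 1, 3 or 4 left out (adjusted p 0.0529 to 0.123) and with the replicate number as a block (adjusted p = 0.0661). Without sponge plus Salmonella replicate 2 the red cell members called lower went from 2 to 4. HBA2 has near-identical copies, and its level is uncertain. The red cell list mean ran from 7.42 to 7.99 in control and from 6.82 to 8.07 in treated libraries. The platelet list mean ran from 7.23 to 7.44 and from 7.76 to 8.28.

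Genes of cell death and survival were raised on both sides of the balance. Of 19 measured, 9 were higher, 3 lower and 7 not called, with a median difference of 0.49. CASP6, an executioner caspase, went from 4.13 ± 0.18 to 6.20 ± 0.30 (2.07 ± 0.27 SE, adjusted p = 9.3e-05), the survival gene MCL1 from 6.23 ± 0.48 to 8.76 ± 0.80 (2.53 ± 0.34 SE, adjusted p = 1.3e-04) and PMAIP1, which encodes the death promoter NOXA, from 3.90 ± 0.26 to 6.86 ± 0.58 (2.96 ± 0.42 SE, adjusted p = 1.6e-04). The 3 members called lower, outside the naming rule, were the mitochondrial nuclease ENDOG (-1.34 ± 0.22 SE, adjusted p = 4.3e-04), the initiator caspase CASP2 (-0.90 ± 0.19 SE, adjusted p = 0.00177) and cytochrome c, CYCS (-0.61 ± 0.22 SE, adjusted p = 0.0337). CYCS lost its call with control replicate 1, 3 or 4 or sponge plus Salmonella replicate 2 or 3 left out (adjusted p 0.0513 to 0.110) and with the replicate number as a block (adjusted p = 0.0530). With a mean of at least 6 required, the members called higher went from 9 to 3.

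Chaperones and genes of the unfolded protein response were called in both directions. Of 26 measured, 7 were higher, 7 lower and 12 not called, with a median difference of -0.12. The heat shock proteins HSPA6 (2.40 ± 0.28 SE, adjusted p = 6.3e-05) and HSPA4 (2.95 ± 0.39 SE, adjusted p = 1.1e-04) rose, and ERN1, the stress sensor IRE1 of the endoplasmic reticulum, fell (-1.33 ± 0.22 SE, adjusted p = 3.6e-04). HSPA6 read 7.28, 8.10, 7.65 and 8.69 in control and 9.79, 10.70, 10.80 and 10.02 in treated libraries, and the groups did not overlap.

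Subunits of the respiratory chain, which work in fixed complexes, were called in both directions, as genes in general were. Of 24 measured, 6 were higher, 12 lower and 6 not called, with a median difference of -0.30. That is 25% higher and 50% lower, beside 15.2% and 38.2% of genes with a mean of 9 and over. The list mean in control libraries was 9.10. UQCRC2 (2.60 ± 0.36 SE, adjusted p = 1.3e-04) and UQCRH (3.48 ± 0.48 SE, adjusted p = 1.4e-04), both of complex III, rose, and UQCRH read 4.67, 4.83, 6.11 and 4.72 in control, 8.04, 9.22, 8.42 and 8.55 in sponge plus Salmonella and 8.38, 6.28, 6.47 and 5.70 in Salmonella libraries. NDUFB11 of complex I fell, from 11.62, 11.36, 11.06 and 11.51 to 10.17, 9.99, 9.99 and 10.50 (-1.23 ± 0.19 SE, adjusted p = 2.9e-04). The 6 higher members had control SDs from 0.54 to 1.08, and control replicate 3 was the highest control for all 6 and Salmonella replicate 1 the highest Salmonella library for all 6. The 12 lower members had control SDs from 0.046 to 0.31, with control replicate 3 the highest for 2 and Salmonella replicate 1 for 1. In complex III, UQCRQ fell (-0.53 ± 0.12 SE, adjusted p = 0.00378) while UQCRC2 and UQCRH rose, UQCRQ being picked for that contrast.

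Of 31 measured ribosomal proteins, 12 were higher, 7 lower and 12 not called, with a median difference of 0.10. RPL4 fell in tight groups, from 13.47, 13.32, 13.27 and 13.36 to 12.47, 12.08, 12.29 and 12.56 (adjusted p = 1.4e-04). RPL23 rose from 7.25, 9.29, 10.16 and 7.66 to 12.03, 12.37, 12.43 and 12.35 (3.70 ± 0.60 SE, adjusted p = 3.8e-04), with its controls in the order already seen, replicate 1 lowest and replicate 3 highest. RPL32 rose as well (1.10 ± 0.20 SE, adjusted p = 8.3e-04). Of the 12 higher members control replicate 3 was the highest control for 9, and of the 7 lower for 2. Left out in turn, control replicates 1, 3 or 4 or sponge plus Salmonella replicates 2 or 3 brought the members called lower from 7 to 3 or 4. The replicate number as a block also gave 4. With median centring the list median was below 0, at -0.03. Ribosomal protein genes have numerous near-identical pseudogenes, which makes their levels uncertain.

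Of 20 proteasome genes, 5 were higher, 5 lower and 10 not called, with a median difference of 0.07. PSMG1, an assembly chaperone, rose (1.97 ± 0.23 SE, adjusted p = 6.3e-05), as did the core subunit PSMA3 (2.16 ± 0.32 SE, adjusted p = 2.3e-04), while PSMD10 (-1.39 ± 0.24 SE, adjusted p = 5.5e-04), a chaperone of the cap, fell. The others called, outside the naming rule, were PSMD9, POMP and PSMD14, higher by 0.76, 0.88 and 0.83, and PSMB4, PSMB6, PSMD1 and PSMC1, with -1.01, -0.83, -0.76 and -0.52. PSMD14 lost its call with control replicate 1 or 4 or sponge plus Salmonella replicate 1 left out (adjusted p 0.0696 to 0.0803). PSMD1 lost it with control replicate 1 or sponge plus Salmonella replicate 2 left out (adjusted p 0.0501 to 0.0537). PSMC1 lost it with control replicate 1 or 4 or sponge plus Salmonella replicate 2, 3 or 4 left out (adjusted p 0.0514 to 0.0788) and with quantile normalization (adjusted p = 0.0874). The median of the proteasome list was -0.14 without sponge plus Salmonella replicate 1, and also fell below 0 without control replicate 3.

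Of 22 lysosome and autophagy genes, 3 were higher, 8 lower and 11 not called, with a median difference of -0.15. ATG12, a ubiquitin-like protein of autophagosome formation, fell from 7.72 ± 0.19 to 5.76 ± 0.40 (-1.97 ± 0.25 SE, adjusted p = 8.3e-05) and the lysosomal enzyme GUSB from 10.04 ± 0.14 to 8.96 ± 0.23 (-1.09 ± 0.17 SE, adjusted p = 2.6e-04). The higher ones were the autophagy receptor CALCOCO2 (1.38 ± 0.23 SE, adjusted p = 4.1e-04) and, outside the naming rule, the lipid kinase PIK3C3 (2.40 ± 0.40 SE, adjusted p = 4.5e-04) and GABARAPL2 (2.41 ± 0.60 SE, adjusted p = 0.00565). Of 11 antigen presentation genes, 3 were higher, 2 lower and 6 not called, with a median difference of -0.19. The costimulator CD80 (-0.70 ± 0.16 SE, adjusted p = 0.00328) and the protease CTSH (-1.22 ± 0.29 SE, adjusted p = 0.00407) fell. The peptide trimmer ERAP2 (1.30 ± 0.34 SE, adjusted p = 0.00777), the class II chaperone CD74 (1.34 ± 0.36 SE, adjusted p = 0.00949) and PDIA3 (0.37 ± 0.13 SE, adjusted p = 0.0285) rose, CD74 and PDIA3 being outside the naming rule. CD80 ended and PDIA3 both began and ended near background. PDIA3 lost its call with control replicate 1, 2 or 3 or sponge plus Salmonella replicate 2 or 3 left out (adjusted p 0.0660 to 0.0805) and with sample weights (adjusted p = 0.0580) and with median centring (adjusted p = 0.128).

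Of 13 glycolysis and hypoxia genes, 3 were higher, 2 lower and 8 not called, with a median difference of 0.16. The collagen hydroxylase P4HA1 (2.93 ± 0.31 SE, adjusted p = 6.2e-05) and hexokinase HK2 (2.35 ± 0.43 SE, adjusted p = 8.5e-04) rose, as did the peptide ADM (1.68 ± 0.34 SE, adjusted p = 0.00157), and the glycolytic enzymes GAPDH (-0.94 ± 0.14 SE, adjusted p = 2.6e-04) and ENO1 (-0.73 ± 0.17 SE, adjusted p = 0.00380) fell, with ADM and ENO1 outside the naming rule. Of 23 cell cycle genes, 1 was higher, 6 lower and 16 not called, with a median difference of -0.13. The factor E2F1 rose (2.07 ± 0.40 SE, adjusted p = 0.00123), and cyclin CCNE1 (-1.37 ± 0.27 SE, adjusted p = 0.00137) and the replication helicase subunit MCM5 (-1.06 ± 0.22 SE, adjusted p = 0.00160) fell. Of 16 immediate early genes, 3 were higher, 0 lower and 13 not called, with a median difference of 0.02, the higher ones being the activation marker CD69 (1.40 ± 0.30 SE, adjusted p = 0.00218), JUNB (1.30 ± 0.31 SE, adjusted p = 0.00420) and MAFK (0.74 ± 0.22 SE, adjusted p = 0.0148). With median centring or sample weights 2 members of that list were called lower. None is called lower otherwise except 1 with quantile normalization or without control replicate 1, control replicate 3 or sponge plus Salmonella replicate 4.

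Of 23 oxidative stress and iron genes, 5 were higher, 5 lower and 13 not called, with a median difference of -0.05. The iron exporter SLC40A1 (2.03 ± 0.39 SE, adjusted p = 0.00112) and catalase, CAT (3.81 ± 0.75 SE, adjusted p = 0.00131), rose. CAT read 4.34, 6.40, 7.38 and 4.65 in control and 9.46, 9.89, 9.65 and 9.01 in treated libraries, again with control replicate 3 highest and replicate 1 lowest. Also called, outside the naming rule, were glutathione reductase GSR (0.65 ± 0.14 SE, adjusted p = 0.00200), PRDX2 (0.81 ± 0.18 SE, adjusted p = 0.00328) and GCLM (1.01 ± 0.38 SE, adjusted p = 0.0468), higher, and PRDX5 (-0.69 ± 0.16 SE, adjusted p = 0.00339), PRDX6 (-0.76 ± 0.18 SE, adjusted p = 0.00403), PRDX4 (-0.61 ± 0.19 SE, adjusted p = 0.0206) and TXNRD1 (-0.62 ± 0.21 SE, adjusted p = 0.0279), lower. Peroxiredoxins, which remove peroxides, thus moved in both directions, and PRDX2, PRDX5 and PRDX6 did so with median centring and quantile normalization too. GCLM lost its call with control replicate 1, 2 or 4 or sponge plus Salmonella replicate 2, 3 or 4 left out (adjusted p 0.0572 to 0.126) and with no variance trend (adjusted p = 0.0584), with median centring (adjusted p = 0.0669) and with quantile normalization (adjusted p = 0.0607). PRDX4 lost it with control replicate 4 or sponge plus Salmonella replicate 3 or 4 left out (adjusted p 0.0506 to 0.0648). TXNRD1 lost it with control replicate 1, 2 or 4 or sponge plus Salmonella replicate 1, 2 or 4 left out (adjusted p 0.0581 to 0.0793) and with the replicate number as a block (adjusted p = 0.0522).

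Genes reported as miR-124 targets, which a sponge would be meant to release, included 14 that rose and 3 that fell. Of 32 measured of 62 listed, 14 were higher, 3 lower and 15 not called, with a median difference of 0.50. That is 43.8% higher and 9.38% lower, beside 17.9% and 23.0% of all genes. CAV1, the caveolae protein, read 4.22, 4.17, 4.35 and 4.25 in control and 5.14, 5.47, 5.31 and 5.16 in treated libraries (1.02 ± 0.14 SE, adjusted p = 1.1e-04). IQGAP1, a scaffold of the actin cytoskeleton, read 6.36, 7.83, 8.27 and 7.13 and 9.58, 10.19, 9.99 and 9.77 (2.48 ± 0.35 SE, adjusted p = 1.5e-04). The kinase ROCK2, which drives actin and myosin contraction, went from 5.21 ± 0.35 to 6.98 ± 0.19 (1.77 ± 0.25 SE, adjusted p = 1.6e-04). The groups of these 3 genes did not overlap, and the controls of IQGAP1 followed the order with replicate 1 lowest and replicate 3 highest.

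Others called higher were ROCK1 (2.27 ± 0.39 SE, adjusted p = 5.8e-04), the myeloid transcription factor SPI1 (1.26 ± 0.21 SE, adjusted p = 4.3e-04), the interleukin-6 receptor chain IL6R (2.05 ± 0.36 SE, adjusted p = 5.9e-04), the phosphatase PTPN12 (1.33 ± 0.24 SE, adjusted p = 6.4e-04) and the neuronal gene repressor REST (0.65 ± 0.18 SE, adjusted p = 0.0103). They were singled out from the 14 with their values known. The members called lower were the sheddase ADAM17 (-0.84 ± 0.23 SE, adjusted p = 0.00973), the proton pump subunit ATP6V0E1 (-0.52 ± 0.16 SE, adjusted p = 0.0169) and the DNA methyltransferase DNMT3B (-0.71 ± 0.23 SE, adjusted p = 0.0215). ATP6V0E1 lost its call with control replicate 4 or sponge plus Salmonella replicate 3 left out (adjusted p 0.0513 to 0.0540) and with quantile normalization (adjusted p = 0.142). DNMT3B lost it with control replicate 3 or sponge plus Salmonella replicate 3 left out (adjusted p 0.0565 to 0.0718). All 3 are outside the naming rule. STAT3 (0.59 ± 0.25 SE, adjusted p = 0.0696) and TRAF6 (-0.27 ± 0.22 SE, adjusted p = 0.334) were not called. Against Salmonella alone, CAV1 (0.50 ± 0.14 SE, adjusted p = 0.0164), ROCK1 (1.21 ± 0.39 SE, adjusted p = 0.0367) and LAMC1 (1.68 ± 0.24 SE, adjusted p = 4.1e-04) were higher, and IQGAP1 (0.66 ± 0.35 SE, adjusted p = 0.171), ROCK2 (0.60 ± 0.25 SE, adjusted p = 0.0933) and PTPN12 (-0.15 ± 0.24 SE, adjusted p = 0.660) were not called. SPI1 was lower than with Salmonella alone (-0.67 ± 0.21 SE, adjusted p = 0.0314). Of these calls that of CAV1 was lost with Salmonella replicate 2 or 3 left out (adjusted p 0.0561 to 0.0563). ROCK1 lost it with sponge plus Salmonella replicate 1 or 2 or Salmonella replicate 2, 3 or 4 left out (adjusted p 0.0730 to 0.110) and with no variance trend (adjusted p = 0.0565). SPI1 lost it with sponge plus Salmonella replicate 1, 3 or 4 or Salmonella replicate 1 or 3 left out (adjusted p 0.0505 to 0.0898) and with the replicate number as a block (adjusted p = 0.0505) and with quantile normalization (adjusted p = 0.219). ROCK2 was called higher without Salmonella replicate 1. The mean of the list was 6.27, 6.51, 6.48 and 6.49 in control, 6.93, 7.08, 6.99 and 6.83 in sponge plus Salmonella and 7.02, 6.98, 6.93 and 6.95 in Salmonella replicates 1 to 4, so the treated groups overlapped each other and neither overlapped the controls. With a mean of at least 6 required, 8 members were called higher.

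**Figure D5:**
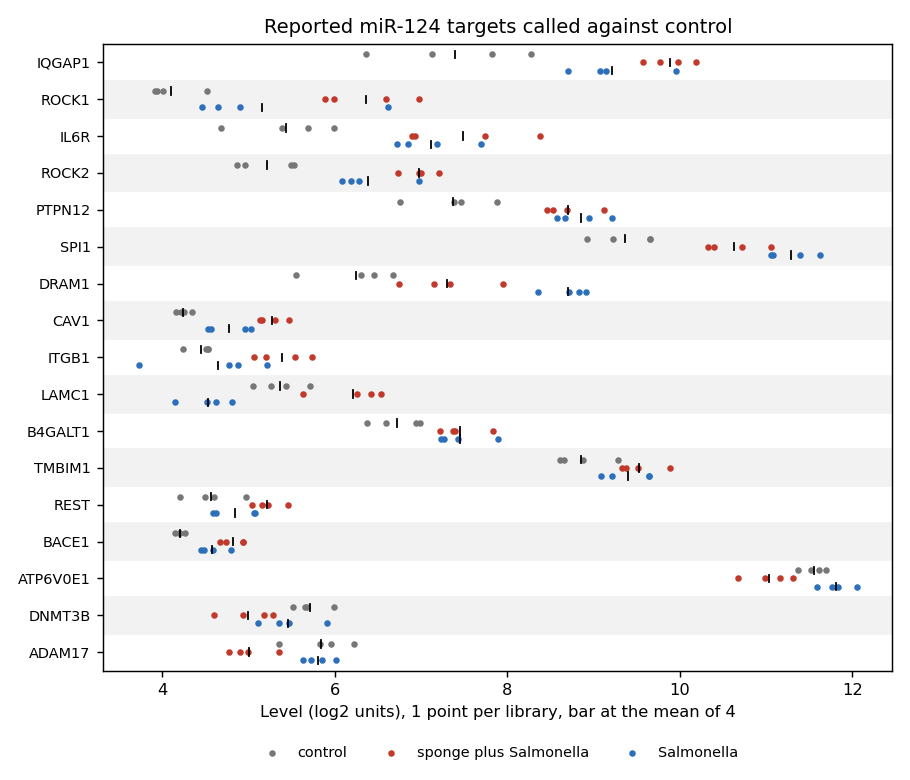
Level in each library (x axis, log2 units) of the 17 reported miR-124 targets called against control, 14 higher and 3 lower, grey for control, red for sponge plus Salmonella and blue for Salmonella, with a bar at each mean of 4. The control and sponge plus Salmonella means of SPI1 are 9.37 and 10.63, and those of LAMC1 are 5.37 and 6.21.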

How the data were processed

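Expression values of 12 PBMC libraries, 4 per group, were deposited by the authors as log2 values, 1 per gene symbol and library. The base of the logarithm is not stated and was taken as 2. Bowtie, R 3.4.2 and the build Sscrofa11.1 were used, per the submitters' processing notes, for single reads of 50 bases. How reads were counted, normalized and filtered is not given in the sources used here. They decide how low genes are compressed toward background. No value was 0. Of the symbols 399 (5.33%) had no match in the pig gene tables, and 53 of the 184 symbols taken as silent had one. Coordinates are those of RefSeq on Sscrofa11.1.

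Linear models of group means over all 12 libraries were fitted in limma 3.58.1 (R 4.3.3), with a variance trend and Benjamini-Hochberg adjustment over 7480 genes. Genes with an adjusted p below 0.05 were called. The fit was tested on simulated data with known changes and independent normal noise. The simulation held no ties, shared values or shared order of libraries, so it cannot tell how the fit deals with those. The named genes are the 15 largest rises and the 15 largest falls among called genes whose mean was at least 5 and whose groups were separate. The 3 members with the lowest p of each list of 4 or more, called or not, join them. Of the falls 1 Y-linked gene is not reported here, nor are 2 named members of the lists. There were 19 lists by function and 10 of cell markers. Lists are described by counts and medians, with no test. The members and lists were chosen with earlier results of these data known. Alternatives were leaving out each library, only the 8 libraries, a replicate block, no trend, sample weights, median centring, quantile normalization, a mean of at least 6, symbols in the pig tables and a test against 0.5 log2 units.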

Additional observations from a re-analysis of the deposited data

Results flagged for a closer look

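In some named genes 1 library lay far from the other 3 of its group, as judged by Dixon's critical value for 4 values. Chance gives this for about 5 in 100 groups, and 14 of 331 groups looked at had it. Control replicate 3 accounted for 7 of them. It was the highest control for UQCRH at 6.11 against 4.67 to 4.83, HSPA4 at 4.30 against 3.68 to 3.74, CASP6 at 4.40 against 4.01 to 4.07 and E2F1 at 4.64 against 3.98 to 4.06 in the other controls, and the lowest for CD74 at 5.56 against 6.63 to 6.85, TXNRD1 at 8.18 against 8.71 to 8.81 and ENO1 at 12.57 against 13.05 to 13.11. Control replicate 1 was apart for PSMG1 at 4.93 against 5.15 to 5.18 (lowest) and CXCR5 at 9.77 against 8.71 to 8.84 (highest). Control replicate 2 was apart for CYBB at 9.23 against 8.60 to 8.67 (highest). Control replicate 4 was apart for PDIA3 at 4.56 against 4.30 to 4.33 (highest). Sponge plus Salmonella replicate 1 was apart for IL33 at 3.90 against 4.18 to 4.23 (lowest). Sponge plus Salmonella replicate 4 was apart for PSMG1 at 6.65 against 7.17 to 7.26 (lowest) and CD74 at 7.17 against 7.99 to 8.04 (lowest). All values are log2 units, and the cause of these gaps was not tested.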

How the results depend on the processing

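Under every alternative the direction of the called genes named here held against control. Against 1336 genes higher and 1721 lower, a mean of at least 6 gave 596 higher and 986 lower of 2904 tested, and limma's test against 0.5 log2 units gave 487 and 244. Left out in turn, the libraries gave 1113 to 1393 higher and 1328 to 1746 lower genes, where leaving out the Salmonella libraries was added after the data were seen. Titles number the replicates 1 to 4 in each group. With the replicate number as a replicate block, 1310 were higher and 1597 lower. Deviations of same-numbered control and treated libraries correlated at 0.21, 0.02, 0.0063 and -0.05 for replicates 1 to 4, and of the treated libraries only replicate 1 correlated best with its own number, so the numbers were not taken as pairs. Median centring brought the higher share of all calls from 43.7% to 29.2% (1062 higher and 2569 lower). Of 152 named genes 121 kept their call against control in every alternative but the test against 0.5 log2 units (where tested), and that test ended 66 calls. Of the 29 with the largest changes 28 did, while against Salmonella alone 15 of the 29 kept their call or lack of one. Depth is unknown, and levels near background limit the size of a difference.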
